A study of Mus musculus with 4 samples.

Results

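The genes described here encode voltage-gated sodium, calcium and potassium channels, pacemaker channels, the channel relatives that share their gene symbols, and their accessory subunits. They were chosen by symbol alone: a probe belonged if its accession led to a mouse gene whose symbol begins with Kcn, Scn and a digit, Cacn, or Hcn and a digit. This gave 142 genes measured by 238 probes, out of 45604 genes and 56605 probes tested on the array. The symbols also bring in potassium channels that voltage does not gate (inward rectifiers, K2P leak channels and most channels opened by calcium or sodium) and 4 noncoding or antisense RNAs. RNA of the nasal mucosa of male C57BL/6 mice, which the labels give as C57BL/6J and as olfactory epithelium, was hybridized to 4 Agilent arrays with Cy3 as the dye. The young adult group (8 weeks old) and the aged group (16 months old) had 2 arrays each, each array carried RNA pooled from 5 mice, and neither group carried a transgene or received an agent. A description on the labels that names silica and lung fits neither the titles nor the study and was not used. The study's methods count fewer mice per age than 2 separate pools would need and do not say whether the pools of an age share animals, so the P values measure the spread between these pools.

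Voltage-gated channels open when the membrane potential changes and carry the action potential: sodium channels drive its rise, potassium channels end it, and calcium channels turn it into calcium entry. In the nasal mucosa the main electrically excitable cells are the olfactory receptor neurons (ORNs), which convert odor binding into a current through cyclic nucleotide-gated and calcium-activated chloride channels, and then fire action potentials through their voltage-gated channels. Glands, sustentacular cells, ciliated cells, blood vessels and glia of the same tissue use inward rectifier, K2P and calcium-activated potassium channels to set their resting potential and to secrete fluid.

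An expression level below is a normalized intensity, which is the brightness of a spot after background correction and after all arrays were brought to the same distribution. It can be compared between arrays for a gene but not between genes, because each probe has its own efficiency. A fold change is the log2 of aged over young adult, with its standard error (SE) over 2 pools per age. A gene was taken as changed if limma gave a P below 0.05 and a false discovery rate (FDR) below 0.25 over all 45604 genes, the criteria in the study's methods. It was a differentially expressed gene (DEG) if it also had a mean expression of 100 or more and changed by 1.5-fold or more. Of the 142 genes, 101 were well above background on all 4 arrays, 17 on some arrays, and 24 on none. A gene counted as well above background on an array if any of its probes was. Its level still averaged all of its probes, so it can include probes near the floor. Of the markers of mature ORNs, the defining cells of the labelled tissue, 12 of 12 were well above background on all 4 arrays, and so were 8 of 10 bone and osteoclast markers.

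The promoters of the 3 genes with the largest changes are shown for their starting sequence, since the array itself holds no regulatory readout. Each runs 5′ to 3′ on the strand of its gene from 250 bases before to 50 bases after the annotated start in RefSeq's GRCm38.p6 assembly, and capitals mark GC boxes (GGGCGG, or CCGCCC on the other strand). *Kcnj5* lies at chr9:32344295-32344594 (minus strand), *Kcnn4* at chr7:24370013-24370312 (plus strand) and *Kcnj8* at chr6:142571565-142571864 (minus strand).
Kcnj5: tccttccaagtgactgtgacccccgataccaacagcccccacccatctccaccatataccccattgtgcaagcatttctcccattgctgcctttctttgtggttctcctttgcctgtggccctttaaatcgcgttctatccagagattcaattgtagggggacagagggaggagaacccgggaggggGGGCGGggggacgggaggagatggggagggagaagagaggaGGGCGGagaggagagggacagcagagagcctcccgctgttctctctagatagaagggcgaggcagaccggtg
Kcnn4: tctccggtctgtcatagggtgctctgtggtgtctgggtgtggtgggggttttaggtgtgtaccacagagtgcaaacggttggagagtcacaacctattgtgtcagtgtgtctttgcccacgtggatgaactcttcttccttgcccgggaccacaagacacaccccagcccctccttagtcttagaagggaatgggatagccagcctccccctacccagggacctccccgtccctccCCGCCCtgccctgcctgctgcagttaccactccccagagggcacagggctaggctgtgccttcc
Kcnj8: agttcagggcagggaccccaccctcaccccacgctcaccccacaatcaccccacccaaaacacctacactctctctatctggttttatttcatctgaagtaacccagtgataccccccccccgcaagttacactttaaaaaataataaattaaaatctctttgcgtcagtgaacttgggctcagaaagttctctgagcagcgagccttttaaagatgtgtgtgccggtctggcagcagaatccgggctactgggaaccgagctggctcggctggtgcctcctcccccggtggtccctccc

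*Kcnj5*, which rose with age, had 2 GC boxes in this window, *Kcnn4*, which fell, had 1, and the *Kcnj8* window had 0. Promoters were found for 104 of the 142 genes, with 140 promoters in all. A GC box stood in 64 of these 140 (45.7%), against 35.7% of all 32851 promoters of the same length. The TATA box letters TATAAA were in 7 (5%) against 13.6%, and the homeodomain core TAATTA in 0 against 5.29%. Motifs were read on both strands, and a match describes letters only. The median GC content was 58.3% in these promoters and 52.7% in all promoters, and the median ratio of observed to expected CpG was 0.436 and 0.384.

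In aged mice 6 of the 142 genes rose (4.23%) and 4 fell (2.82%), by limma's P and FDR. Over all genes tested, 3.98% passed these criteria, 1.65% as rises and 2.33% as falls. *Kcnj5*, *Kcng1*, *Kcnmb3*, *Kcnt1* and *Scn3b* were among the genes that rose, and those that fell were *Kcnn4*, *Kcnj8*, *Kcnmb4* and *Cacna1g*. In all, 4 genes, *Kcnj5*, *Kcng1* and *Kcnmb3* among them, were upregulated DEGs, and *Kcnn4* and *Kcnj8* were downregulated DEGs. DEGs made up 0.814% (upregulated) and 1.15% (downregulated) of all genes. All 10 lay among the 101 channel genes well above background on all 4 arrays, so that 5.94% of these 101 rose and 3.96% fell. Over the 26727 genes of the whole array measured as well, 2.11% rose and 3.07% fell. The median fold change of the 142 genes was 0.04, against 0.01 over all genes. Both aged arrays lay above both young adult arrays for 54 of the 142 genes (38%), against 24.2% of all genes, and below for 31 (21.8%), against 21.8%. At an unadjusted P below 0.05, 21 genes were higher and 17 lower, where all genes gave 6.05% and 7.08%. With 2 pools against 2, the smallest exact permutation P of a single gene is 0.333, so the calls rest on the spread that limma shares between genes, and a change in a pooled tissue cannot be told apart from a change in how many cells of a type it holds. Leaving out any 1 of the 4 arrays left 0 of the 142 genes changed by limma (smallest FDR over all genes 0.404 to 0.683), with 7 to 15 genes higher and 5 to 14 lower at an unadjusted P below 0.05.

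**Figure D1:**
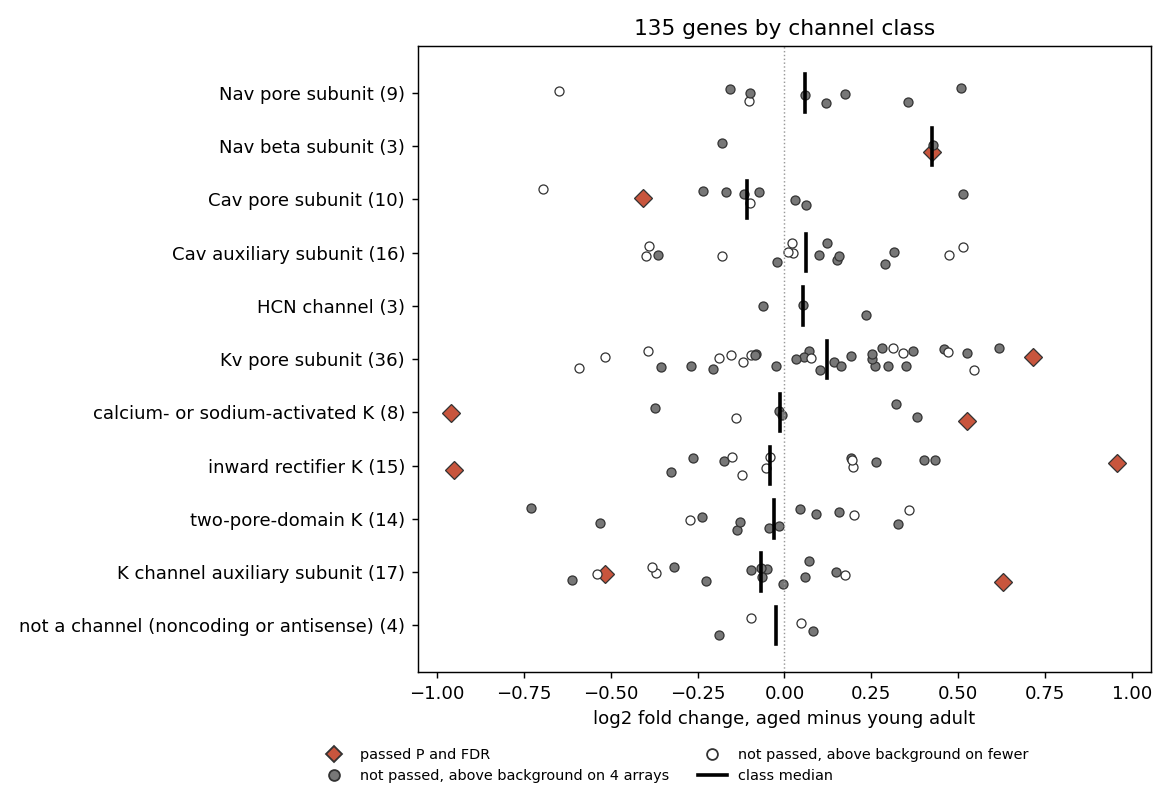
Log2 fold change (aged minus young adult) of 135 of the 142 genes, by channel class, with the number of genes drawn in parentheses. Diamonds are 9 genes past P and FDR, filled circles are other genes well above background on all 4 arrays, open circles are genes above background on fewer, and black bars are the medians of the points drawn. The Kv pore subunits lean to the right, with *Kcng1* at 0.72, while *Kcnn4* and *Kcnj8* lie farthest to the left at -0.96 and -0.95.

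Voltage-gated sodium channels consist of a pore subunit and beta subunits, which alter gating and bring the channel to the membrane. Of the 4 beta subunit genes, 1 rose, 0 fell and the class median was 0.38. *Scn3b* was 2548 and 2592 in young adult mice and 3410 and 3492 in aged mice. The 2 ages did not overlap, and the log2 fold change was 0.43 (SE 0.075, FDR = 0.24 by limma). Its 2 probes, which were made to different transcript accessions, gave 0.38 and 0.47. *Scn4b*, the subunit tied to resurgent sodium current, was 16628 and 15935 in young adult mice and 22871 and 20946 in aged mice. Its arrays also separated by age, but its FDR of 0.27 (fold change 0.43) missed the criterion of limma's test. *Scn2b* was 152 and 164 against 154 and 126 (-0.18, FDR = 0.643), with the ages overlapping.

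None of the 10 sodium channel pore genes passed limma's criteria, and at an unadjusted P below 0.05 there were 0 higher and 1 lower. Their median was 0.09, with 6 positive and 4 negative. *Scn9a*, the pore subunit best known from olfactory and pain-sensing neurons, was 502 and 508 in young adult mice and 533 and 518 in aged mice (0.06, SE 0.076). *Scn8a*, the main pore subunit of mature central axons, was 464 and 441 against 512 and 509 (0.17, FDR = 0.482), and its 4 probes gave 0.08 to 0.31. *Scn3a*, the embryonic neuronal form, was at 283 and 259 against 279 and 310 (0.12). *Scn2a* had a fold change of 0.36, *Scn7a* of -0.10 and *Scn1a* of -0.10. The muscle gene *Scn4a* was uneven within young adult mice, at 102 and 190. The nociceptor gene *Scn10a* had the smallest P of the class (0.0195, FDR = 0.291), with a fold change of -0.65, but it was well above background on 1 array alone. *Scn11a*, its neighbor on the chromosome, was 96.3, 93.7 and 95.4 on 3 arrays and 191 on aged array 1, and its fold change of 0.51 (FDR = 0.644) came from that array.

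Calcium channel pore subunits fall into high-voltage classes, which trigger transmitter release and muscle contraction, and low-voltage (T-type) classes, which open near rest. Of the 10 pore genes, 0 rose and 1 fell, and the class median was -0.11. *Cacna1g*, a T-type gene, was 566 and 559 in young adult mice and 431 and 418 in aged mice. It fell by 0.41 on the log2 scale (SE 0.076, FDR = 0.246 by limma) without overlap between ages. Its 3 probes gave -0.17, -0.39 and -0.66, and with the brightest probe alone the value was -0.17 (FDR = 0.529). The other T-type genes, *Cacna1h* (255 and 295 against 279 and 293) and *Cacna1i* (129 and 111 against 114 and 113), had fold changes of 0.06 and -0.07.

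*Cacna1a*, the P/Q-type pore of presynaptic terminals, was 222 and 244 in young adult mice and 347 and 318 in aged mice. The arrays separated, and the value of 0.51 missed limma's criterion with an FDR of 0.258. Of its 3 probes, 2 gave 0.73 and 0.79, and the third, made to another transcript accession, gave 0.02. With the brightest probe alone it passed (0.79, FDR = 0.192). The N-type gene *Cacna1b* (-0.17), the L-type genes *Cacna1c* (-0.12), *Cacna1d* (0.03) and the skeletal muscle form *Cacna1s* (-0.23) had FDRs of 0.573 to 0.914. For *Cacna1c* the 2 probes well above background on all arrays gave -0.48 and -0.33, while the 2 dim ones gave 0.39 and -0.04.

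The calcium channel accessory subunits comprise the beta and alpha2delta families, which help carry pores to the membrane, and the gamma family. Their 16 genes had 0 rises and 0 falls, and 11 of the 16 fold changes were positive (median 0.06). The smallest P was that of *Cacng4*, at 83.7 and 86.9 in young adult mice and 65.0 on both aged arrays (-0.39, FDR = 0.254 by limma). It had 1 probe, which was not well above background on aged array 1, and its equal aged values gave a spread of 0 that lowers the P. *Cacna2d2* was -0.36 (FDR = 0.264), but only 1 of its 3 probes was well above background. That probe gave -0.18, while the dim ones, near the floor, gave -0.20 and -0.71. *Cacna2d1* was 0.12 and *Cacnb4* was 0.16. *Cacnb3*, a beta subunit, was 4532 and 4682 against 5116 and 5123 (0.15, FDR = 0.514). The beta subunit genes *Cacnb1* (0.29, FDR = 0.441) and *Cacnb2* (0.32, FDR = 0.507) also lay higher on both aged arrays without passing. Of these 16 genes, 6 were on none of the arrays well above background, and 5 of those 6 belonged to the gamma family, so their values are near the floor of the array.

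HCN channels open on hyperpolarization, pass the pacemaker current and are modulated by cyclic AMP. *Hcn2* was 20454 and 20338 against 21125 and 21220 (0.05), *Hcn3* was 124 and 108 against 128 and 145 (0.23), and *Hcn4* was 420 and 445 against 415 and 414 (-0.06). The 2 ages separated for each of these genes, and none passed limma's criteria (FDR = 0.541 to 0.789).

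**Figure D2:**
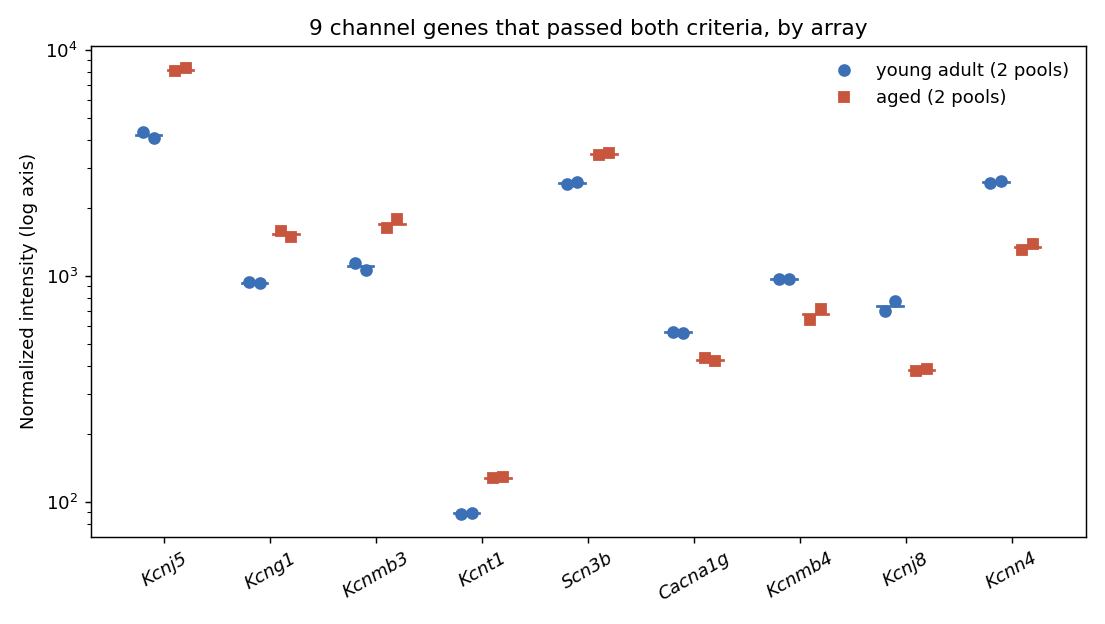
Normalized intensity (log axis) on each array for 9 of the genes that passed P and FDR, ordered from the largest rise to the largest fall; circles are young adult arrays, squares aged arrays and short lines the means of 2. Heights may be compared within a gene only, and in each gene the pairs of points do not overlap, as with *Kcnj5* at 4349 and 4057 against 8023 and 8294. The genes were chosen by a test on these same arrays, so this separation adds no evidence.

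The Kv genes encode the pores of voltage-gated potassium channels, which repolarize the membrane. Of the 40, 1 rose and 0 fell, and the class median was 0.18, with 27 positive and 13 negative values. Both aged arrays lay above both young adult arrays in 20 of the 40 and below in 3, against 24.2% and 21.8% of all genes. At an unadjusted P below 0.05, 7 were higher and 1 was lower, against 6.05% and 7.08% of all genes. Among the 27 Kv genes well above background on all 4 arrays, 21 were positive and 6 negative (median 0.22), where the median of all genes so measured was 0.02. The gene that rose was *Kcng1*, at 940 and 925 in young adult mice and 1576 and 1489 in aged mice (0.72, SE 0.081, FDR = 0.189 by limma).

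*Kcng1* encodes a silent subunit, which forms no channel alone but joins delayed rectifier subunits such as that of *Kcnb2* and changes their gating. Other silent subunit genes gave mixed values: *Kcns3* was 3692 and 3753 against 4583 and 4902 (0.35, FDR = 0.291), *Kcnf1* was 0.16 and *Kcns1* was -0.08. *Kcnb2* was uneven within young adult mice, at 123 and 70.4, with 87.4 and 68.2 in aged mice.

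Among the Shaker-type genes, *Kcna1* (0.07) and *Kcna2* (0.03), which set the threshold of axons, were nearly level across the 4 arrays, at 2639 to 2828 and 1080 to 1125. *Kcna5* was 1750 and 1195 against 2161 and 2280 (0.62, FDR = 0.41), with the young adult arrays farther apart than the aged ones. *Kcna3*, the channel of T cells, was well above background on 1 array alone (-0.59). The fast-repolarizing genes *Kcnc1* (-0.02) and *Kcnc4* (0.19) and the A-type gene *Kcnd2* (111 and 139 against 167 and 174, 0.46, FDR = 0.365) did not pass.

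The ether-a-go-go family split in sign. *Kcnh3* was 16787 and 18239 in young adult mice and 21012 and 20941 in aged mice (0.26, FDR = 0.378 by limma), *Kcnh6* was 144 and 180 against 229 and 235 (0.52, FDR = 0.322), and *Kcnh2*, the cardiac repolarization gene, was 0.28 (FDR = 0.444). *Kcnh8* went the other way, at 276 and 261 against 204 and 216 (-0.36, FDR = 0.292). In the KCNQ family, whose members carry the M-current of neurons or potassium secretion in epithelium, *Kcnq1* was -0.20, and *Kcnq3* was above background on no array.

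Channels opened by internal calcium or sodium link ion entry to hyperpolarization. The largest fall of all 142 genes was that of *Kcnn4*, the intermediate-conductance channel of secretory epithelium, red cells and lymphocytes. It was 2572 and 2635 in young adult mice and 1295 and 1385 in aged mice (-0.96, SE 0.083, FDR = 0.178 by limma). Its 3 probes gave -1.03, -0.92 and -0.92. *Kcnt1*, a sodium-activated channel of neurons, rose from 88.0 and 89.4 to 127 and 128 (0.53, SE 0.074, FDR = 0.208). It was too small a rise for a DEG, and its 3 probes differed: 0.73, 0.02 and 0.83. The small-conductance genes were not changed by the criteria, with *Kcnn2* at 469 and 546 against 665 and 654 (0.38, FDR = 0.341), *Kcnn3* at -0.37 (FDR = 0.325) and *Kcnn1* at -0.01. For *Kcnn3* the probe well above background gave -0.16, while the other, well above background on no array, gave -0.59. *Kcnu1*, known as a channel of sperm, was 207 and 233 against 272 and 278 (0.32, FDR = 0.357).

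The BK channel, opened by voltage and calcium together, has 1 pore gene and several modulatory subunits. Its pore gene *Kcnma1* was 1918 and 1946 in young adult mice and 1909 and 1912 in aged mice (-0.02, SE 0.074), and its 5 probes lay between -0.14 and 0.11. The genes of the modulatory subunits differed in direction. These are levels in whole tissue, and whether the subunits share a cell with this pore was not tested. *Kcnmb3* rose, from 1144 and 1057 to 1623 and 1780 (0.63, SE 0.10, FDR = 0.221 by limma). *Kcnmb4*, the neuronal beta subunit, fell, from 963 and 968 to 640 and 713 (-0.52, SE 0.095, FDR = 0.244), with its 2 probes at -0.54 and -0.49. *Kcnmb1*, the smooth muscle beta subunit, was 57.1 and 54.2 against 42.6 and 43.5 (-0.37, FDR = 0.271), and *Kcnmb2* was 1007 and 980 against 1078 and 1123 (0.15, FDR = 0.532). *Lrrc26*, the gamma subunit that lets BK channels open at rest in secretory cells and is named outside the symbol rule, fell from 13209 and 13664 to 8606 and 8648 (-0.64, SE 0.076, FDR = 0.193). The other gamma subunit genes, *Lrrc38* (-0.22), *Lrrc52* (0.15) and *Lrrc55* (0.19), did not pass.

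**Figure D3:**
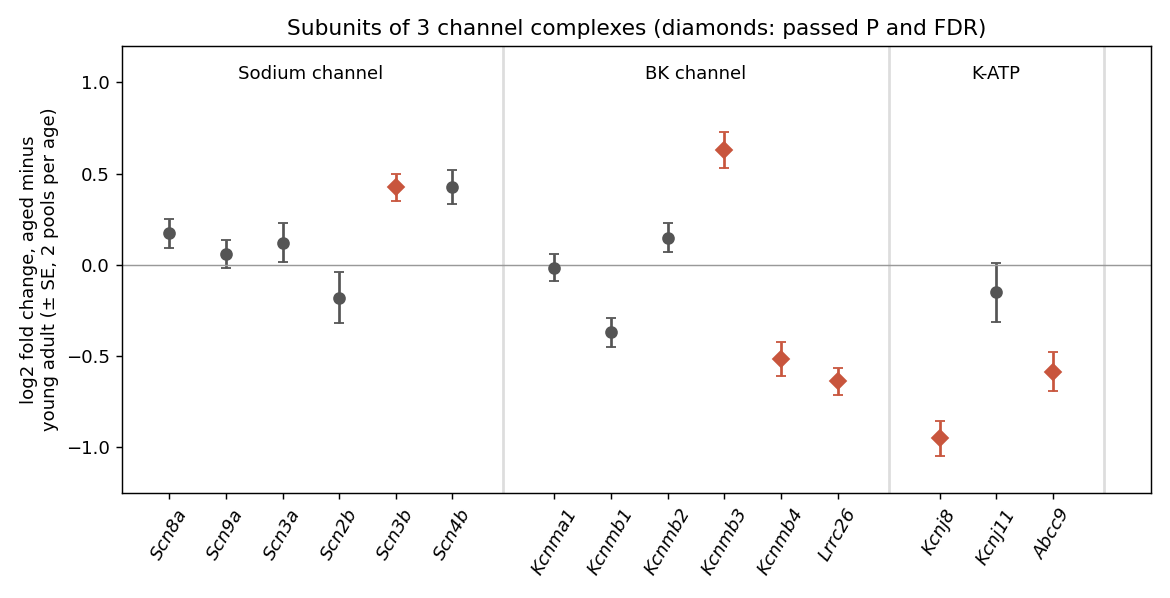
Log2 fold change (aged minus young adult, with SE, 2 pools per age) of subunits of the sodium channel, the BK channel and the ATP-sensitive potassium channel (K-ATP); diamonds passed P and FDR. The BK pore gene *Kcnma1* sits at -0.02 while *Kcnmb3* lies at 0.63 and *Kcnmb4* and *Lrrc26* lie at -0.52 and -0.64.

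Inward rectifiers pass potassium mainly into the cell and hold the resting potential. Of the 15 genes, 1 rose and 1 fell, and the median was -0.04. *Kcnj5*, a subunit of the G protein-gated channels that slow the heart, was 4349 and 4057 in young adult mice and 8023 and 8294 in aged mice (0.96, SE 0.085, FDR = 0.178 by limma). This was the largest rise among the 10 changed genes. *Kcnj3* and *Kcnj9*, which encode partners of this subunit, were well above background on no array, and *Kcnj6*, another partner, on 2 arrays (0.20, FDR = 0.593). *Kcnj1*, the epithelial rectifier next to *Kcnj5* on the chromosome, was 1107 and 1098 against 1188 and 1336 (0.19, FDR = 0.52).

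*Kcnj8*, the pore of the ATP-sensitive potassium channel of vessels, was 699 and 777 in young adult mice and 377 and 385 in aged mice (-0.95, SE 0.095, FDR = 0.184 by limma). *Abcc9*, its sulfonylurea receptor subunit and its neighbor on the chromosome, fell as well, from 287 and 262 to 173 and 193 (-0.59, SE 0.11, FDR = 0.242). *Kcnj11*, the other pore gene of this channel type, was well above background on no array (-0.15). *Abcc9* is also a marker of pericytes. In the list of 10 smooth muscle and pericyte markers to which it belongs, 0 rose, 3 fell (*Abcc9*, *Cnn1* and *Myh11*) and the median was -0.16. Of the 10 fold changes 7 were negative and 3 positive, those of *Rgs5* (0.17), *Des* (0.14) and *Mcam* (0.10), so the list did not move as a whole. The summed level of that list was 73240 to 74040 in young adult mice and 72310 to 73080 in aged mice, and its part in the fall of *Kcnj8* was not tested.

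*Kcnj2*, the classical strong rectifier, was 889 and 903 against 1154 and 1216 (0.40, FDR = 0.257 by limma), and its neighbor *Kcnj16*, which pairs with *Kcnj10* in epithelium and glia, was 5908 and 5966 against 4780 and 4682 (-0.33, FDR = 0.283). The pair thus separated by age in opposite directions, and neither passed. *Kcnj10* was 2689 and 2523 against 2191 and 2149 (-0.26, FDR = 0.36), *Kcnj13*, of transporting epithelium, was 8041 and 7667 against 7021 and 6896 (-0.17), and *Kcnj15* was 1884 and 2099 against 2649 and 2718 (0.43, FDR = 0.277). *Kcnj10* is a gene of glia too. Of the 10 Schwann and ensheathing cell markers, 6 fell and 0 rose, with a median of -0.51 and a summed level of 40550 to 41690 in young adult mice and 28680 to 30020 in aged mice. What these cells contribute to *Kcnj10* and *Kcnj16* was not tested.

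The 14 K2P genes, whose channels carry the potassium leak, had 0 rises and 0 falls (median -0.03). *Kcnk2*, a channel opened by stretch, had the smallest P, at 401 and 305 in young adult mice and 203 and 219 in aged mice (-0.73, SE 0.17, FDR = 0.291 by limma). *Kcnk6* was 240 and 284 against 172 and 189 (-0.53, FDR = 0.297), *Kcnk13* was 110 and 107 against 140 and 133 (0.33, FDR = 0.294) and *Kcnk5* was 468 and 446 against 385 and 391 (-0.24, FDR = 0.378). These 4 separated by age without passing. *Kcnk1*, at 2847 and 2781 against 3075 and 3200 (0.16), did likewise, and *Kcnk3* (-0.13) overlapped. The other 8 K2P genes lay between -0.27 (*Kcnk7*) and 0.36 (*Kcnk18*), and both of those were dim.

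Potassium channel accessory genes numbered 17, of which *Kcnmb3* rose and *Kcnmb4* fell, with 12 of 17 fold changes negative (median -0.07). Apart from the BK subunits, *Kcne4*, which encodes an inhibitory partner of Kv pores, was 170 and 182 in young adult mice and 103 and 128 in aged mice (-0.61, SE 0.15, FDR = 0.291 by limma). *Kcnrg*, whose product hinders the assembly of Kv channels, was 1463 and 1369 against 1140 and 1131 (-0.32, FDR = 0.309). *Kcne1*, the partner of *Kcnq1* in the heart and inner ear, was 44.1 and 82.1 against 38.0 and 45.3 (-0.54, FDR = 0.61) and was well above background on 2 arrays. The calcium-binding subunits of A-type channels, *Kcnip3* (0.07) and *Kcnip4* (0.06), and the beta subunits *Kcnab1* (-0.05), *Kcnab2* (-0.06) and *Kcnab3* (0.00) gave values near 0. Of the 4 noncoding or antisense RNAs, 0 passed. *Kcnmb4os2*, antisense to the *Kcnmb4* gene, was 293 and 296 against 251 and 267 (-0.19, FDR = 0.462), and the imprinting RNA *Kcnq1ot1* was 0.08.

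The FDR criterion ran through a dense stretch of values. *Cacna1g* (0.246) and *Kcnmb4* (0.244) lay just inside, and *Cacng4* (0.254), *Kcnj2* (0.257), *Cacna1a* (0.258) and *Cacna2d2* (0.264) just outside it, by limma. The probe make-up also mattered: 61 of the 142 genes had several probes, and in 15 of them the probes differed in sign, none of which was among the 10 changed genes. Of those 10, *Kcnj5*, *Kcnj8*, *Kcng1* and *Kcnmb3* had 1 probe each and could not show such a difference.

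Young adult array 1 and aged array 1 shared a slide, and the other arrays lay on a slide each, so that a pair of arrays gave a comparison within a slide. Within it the 10 changed genes ran from -0.99 (*Kcnn4*) to 0.88 (*Kcnj5*). Their direction there was fixed in advance, because the ages overlapped in none of the 10, so it is no separate check of a slide effect. The other pair, aged array 2 minus young adult array 2, gave -1.01 for *Kcnj8* and 1.03 for *Kcnj5* at its ends. *Kcnmb3* lay farther from equality, at 0.50 within the slide and 0.75 for the other pair. Across the 4 arrays 63.1 to 76.8% of spots were well above background and 0 were saturated. Local background was brighter on the shared slide (medians of 67 and 63) than on the other arrays (32 and 39). Over the 142 genes the arrays correlated at 0.98 to 0.991, which is a correlation across genes and not across replicates.

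**Figure D4:**
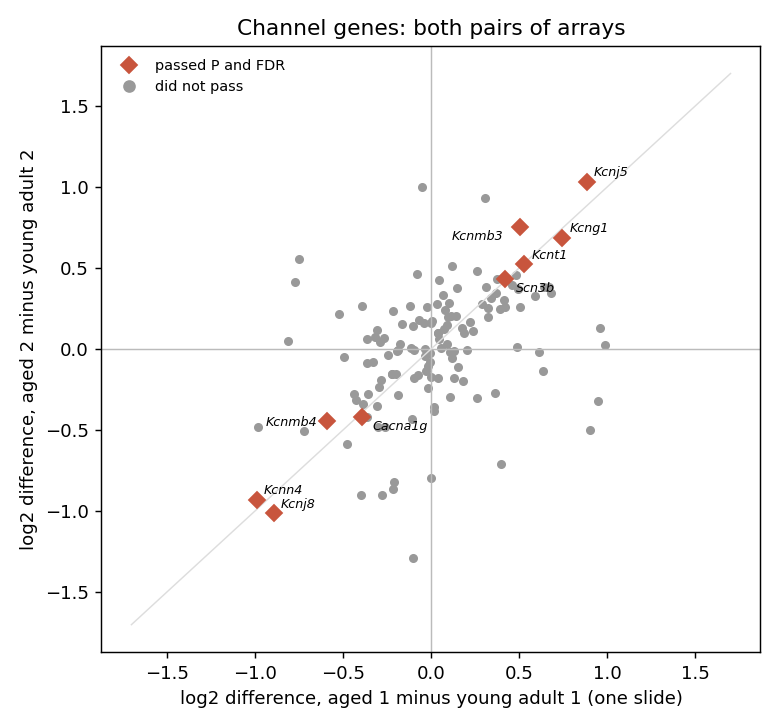
Each of 135 of the 142 genes by its log2 difference on the slide that held both ages (horizontal) and on the other pair of arrays (vertical); diamonds passed P and FDR and the line marks equal differences. The 9 diamonds lie near that line, from *Kcnj8* at the lower left to *Kcnj5* at the upper right. A small spread within each age helped these genes to pass, so their nearness to the line is no separate check.

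A list of 80 other genes of excitability (channels outside the symbol rule, pumps, exchangers and channel partners) served as the surrounding pathway, and 78 were on the array. Of these, 3 rose and 3 fell, against 1.65% and 2.33% of all genes, and the median was 0.05. *Unc80*, an auxiliary subunit of the sodium leak channel, rose from 178 and 163 to 324 and 331 (0.94, SE 0.091, FDR = 0.183 by limma), while the leak pore gene *Nalcn* was 0.18 (FDR = 0.562). The calcium-activated cation channel gene *Trpm5*, of chemosensory cells, rose from 151 and 172 to 272 and 241 (0.67, FDR = 0.245). Besides *Lrrc26*, the proton channel gene *Hvcn1* of immune cells fell from 689 and 678 to 524 and 517 (-0.39, FDR = 0.248), and *Fgf11*, of the family that binds sodium channels, from 184 and 185 to 137 and 142 (-0.40, FDR = 0.248). The transduction channel genes of ORNs gave 0.08 (*Cnga2*), 0.25 (*Cnga4*), 0.30 (*Cngb1*) and 0.38 (*Ano2*), with none past the criteria.

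Markers of the cells in this tissue also differed between the ages, and their part in the channel results was not tested. Summed levels, here and above, are weighted toward the brightest probes of each list. Of 12 mature ORN markers, 12 had positive fold changes, 1 rose (*Stoml3*, 0.43) and the median was 0.25, with a summed level of 577800 to 586700 in young adult mice and 641400 to 649600 in aged mice. Of 10 immature ORN markers, 9 were negative and 1 fell (*Dpysl3*, -0.40), with a median of -0.28 and sums of 80660 to 81230 and 65700 to 66150. Of 16 skeletal muscle markers 0 passed (median -0.21, 3665 to 4170 against 3256 to 3492, *Myh4* above background on no array). Of 10 bone and osteoclast markers 8 fell (median -1.02, 93750 to 96290 against 29910 to 30280), and of 8 macrophage markers *Cd68* and *Mrc1* fell (median -0.27, 12990 to 13670 against 11610 to 11630). Secretory gland markers split, with *Muc5b* higher and *Ltf* and *Muc5ac* lower among 8 (median 0.00, 899600 to 905300 against 872100 to 884400). *Cyp1a2* rose among 8 sustentacular markers (median 0.02, 809600 to 823000 against 851900 to 853800) and *H2-M10.3* among 7 vomeronasal markers (median 0.09, 7289 to 7603 against 8129 to 8243, *Vmn1r51* and *Vmn2r26* above background on no array). The pituitary hormone genes *Prl* and *Gh* rose among 9 pituitary markers (median 0.26), with *Prl* at 282 and 238 in young adult mice and 8155 and 7969 in aged mice. The summed level of that list (97990 to 99710 against 119000 to 127800) was almost all *Chga* (96745 to 98524 against 109656 to 117947), with *Fshb*, *Pou1f1* and *Tshb* above background on no array. None of 7 ciliated cell markers (median -0.12, 31370 to 32060 against 29410 to 29580) or 9 lymphoid markers (median -0.14, 8695 to 8708 against 7252 to 8422, *Cd8a* and *Ncr1* above background on no array) passed limma's criteria.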

How the data were processed

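The authors labelled pooled RNA with Cy3, hybridized it to Agilent mouse arrays and extracted the spots with Feature Extraction 11.0.1.1. Each deposited array file gives a median intensity per spot, a median local background, a processed intensity and flags, without scaling between arrays. The deposited series table repeats the processed intensity (62976 of 62976 spots per array). Per the submitters' processing notes, R 3.2.1 was used.

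From the median intensities, the background was corrected by normexp with an offset of 0 (limma 3.58.1, R 4.3.3). Control spots and outlier-flagged spots (88 to 118 per array) were left out, spots of a probe were averaged, log2 values were brought to a common distribution (quantile normalization), and a gene took the mean of its probes. Accessions led to symbols through RefSeq's GRCm38.p6 gene table for 58.3% of the probes. The other probes kept the array's identifier. Ages were compared with limma (lmFit, eBayes, no covariates; 2 residual and 1.38 prior degrees of freedom) with the Benjamini-Hochberg FDR over 45604 genes, after the fit had been tested on simulated data. The methods in the paper give limma, quantile normalization and the thresholds, but no background method.

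The channel genes, classes and gene lists were chosen with earlier results of these data known. Genes are named if they passed P and FDR, had the smallest P of their class, or stood in a list of genes with known roles. Others with an unadjusted P below 0.05, an unusual spread or a partner in the same complex were named after their values were seen. Several genes are not reported here by name; they stay in the counts and medians, but not in the plots. Other offsets, background and scaling methods, flagged spots kept, dim probes left out, the brightest probe, an intensity trend, the replicate block, the shared slide and each array left out were tried. Precision is limited by having 2 arrays per age and, near background, by the signal itself.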

Additional observations from a re-analysis of the deposited data

How the results depend on the processing

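The direction of the 10 changed genes was kept under every alternative run, while the counts of changed genes moved with how the background and the spread were modelled. With an array left out, the shared slide, the replicate block or the intensity trend, that direction was fixed in advance, since the ages overlapped in none of the 10. The 6 rises and 4 falls became 11 and 9 with a normexp offset of 16, 21 and 12 with an offset of 50, 17 and 13 with the processed intensity quantile normalized, 29 and 17 with dim probes left out (108 genes tested) and 26 and 13 with an intensity trend in eBayes. Downregulated DEGs numbered 5 with the processed intensity quantile normalized, 4 with dim probes left out and 4 with the trend, and upregulated DEGs 7 with the brightest probe. Under these settings the share of all genes that rose or fell grew as well, for example to 12.1% and 12.4% with dim probes left out. Scaling to the 75th percentile kept 6 of the 10 calls, from either intensity: *Kcnt1* (FDR 0.262 to 0.269) and *Cacna1g* (0.282 to 0.285) were lost with both, *Kcnmb4* (0.269) with the processed intensity and *Scn3b* (0.254) with the median intensity. The median over the 142 genes was 0.0293 and 0.0242 with offsets of 16 and 50, 0.103 with the processed intensity scaled to the 75th percentile (all genes 0.0661), 0.0437 with the median intensity so scaled, and 0.0569 with dim probes left out. With each array left out in turn it ran from 0.0429 to 0.0668, and the counts of rises, falls and DEGs were all 0 (0 to 0), with 2 arrays against a lone array assumed to vary alike. With the replicate block, all 4 counts were also 0 (smallest FDR 0.433), with 18 genes higher and 13 lower at an unadjusted P below 0.05. The labels give the replicates a number only and state no pairing. Across genes, the deviations of same-numbered arrays correlated at -0.0779 after normalization. This cannot settle whether the samples were paired, since normalization removes shifts of a whole array and the arrays numbered 1 shared a slide. *Kcnj5*, *Kcnj8*, *Kcng1* and *Kcnmb3* were measured by 1 probe each, so the brightest probe setting left their values as they were and is no test of them. *Kcnn4*, *Kcnj5*, *Kcnj8*, *Kcng1* and *Kcnmb3* passed in 9 of the 10 tested alternatives that kept all arrays, *Kcnmb4* and *Scn3b* in 8, *Kcnt1* in 7 and *Cacna1g* in 6. Under these alternatives 57 genes of the naming rule were followed, and those of them that had not passed and changed sign were *Kcnma1* (0.0103 with the processed intensity scaled to the 75th percentile, 0.0341 with the brightest probe), *Kcnq3* (0.635 and 0.0704 with the processed intensity scaled or quantile normalized, -0.428 to 0.0496 with an array left out, positive without young adult array 1 or aged array 2 (0.0159)), *Scn7a* (0.0402, processed intensity quantile normalized), *Scn1a* (0.0923 with dim probes left out, 0.0894 with the brightest probe, 0.0299 without young adult array 1, from -0.23 with others left out), *Cacna1b* (0.086 with the brightest probe, 0.0195 within the slide), *Cacna1d* (-0.0682 with the brightest probe, -0.0552 without young adult array 1, to 0.118 with others left out), *Cacna1h* (-0.043 without young adult array 1, to 0.166 with others left out), *Kcnj11* (0.0344 without young adult array 1, from -0.334 with others left out), *Kcnc1* (0.0429 and 0.0632 without young adult or aged array 2, -0.111 without aged array 1, 0.13 within the slide), *Scn4a* (0.292 without young adult array 2, -0.602 without young adult array 1, 0.399 within the slide), *Scn2b* (0.0176 within the slide) and *Scn3a* (-0.0205 within the slide). The cause of these changes was not tested. A fit with the slide as a random block could not be run on 4 arrays over 3 slides. Genes near background, 24 of the 142 on all arrays, have no firm value in either age.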
